A study of Mus musculus with 6 samples.

Results

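The 7 genes described here encode the receptor, kinases, transcription factor and brakes through which leukaemia inhibitory factor (LIF) acts on mouse embryonic stem cells: Lifr, Il6st, Jak1, Jak2, Stat3, Socs3 and Ptpn11. Their members in the data are the AGO2 target peaks, short intervals of RNA recovered with AGO2, whose midpoint lay within the RefSeq gene span on GRCm38, the assembly also called mm10. By this rule 20 of the 3292 peaks of the series belonged to 4 of the 7 genes, 9 to Lifr, 9 to Il6st, 1 to Stat3 and 1 to Socs3. Jak1, Jak2 and Ptpn11 had none. Across the annotation, 8.33% of the 21900 protein-coding genes had at least 1 peak by the same rule. The median gene span was 17146 nt over all protein-coding genes and 35164 nt over those with a peak. Apart from Socs3 (4258 nt), the 7 genes span 42791 to 113309 nt, and the share was not matched for span. The 20 peaks were selected on their position in the list, and the 7 genes were proposed with their peaks in view, so these counts are a description and no test was applied to them.

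All 6 libraries of the series came from 1 line of mouse embryonic stem cells, genotype Spy3-Ago2. AGO2 is the Argonaute protein that is loaded with microRNAs (miRNAs) and guided by them to target RNAs, and in these cells it bears a Spy3 tag. The cells grew on gelatin in medium with serum and LIF. The tagged protein was captured covalently by SpyCatcher3 on a resin, and 2 miRNA libraries and 2 target libraries were made from its RNA, beside 2 input libraries from whole lysate. One peak list stood for the whole series and gave position and strand but no level, so no spread between replicates exists for any peak below. The depth of the target and input libraries is not given in the files used here, and no library of cells without the tag was analysed here. The miRNA libraries held 12562727 and 22908172 counts, of which the stem cell cluster miR-290/miR-295 took 39.1% ± 0.47 (SD, n = 2) and the let-7 miRNAs of both arms, which rise on differentiation, 0.0177% ± 0.0024. The muscle miRNAs miR-1a-3p, miR-133a-3p and miR-206-3p summed to 0.000497% ± 0.00011, and miR-122-5p of liver stood at 0.00177% ± 0.0014.

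LIF binds the receptor chain LIFR, which pairs with gp130, the signalling chain encoded by Il6st and shared by most cytokines of the interleukin-6 family. Neither chain is a kinase; JAK1 and JAK2 sit on their cytoplasmic tails, phosphorylate them and so recruit STAT3, which then enters the nucleus and maintains self-renewal of mouse embryonic stem cells. SOCS3, made in response to STAT3, shuts the receptor off, and the phosphatase SHP2, encoded by Ptpn11, docks on gp130 and routes part of the signal to RAS and ERK. AGO2 finds RNAs mainly through pairing with the miRNA seed, bases 2 to 8 from its 5′ end.

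The sequences below are shown because AGO2 finds its targets through such guides. They are the most abundant miRNA of each of the 6 seed families with the highest mean share, which is not the order of single miRNAs, from RefSeq on GRCm38.p6, 5′ to 3′, with the seed in capitals.
miR-290a-5p: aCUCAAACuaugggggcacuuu
miR-92a-3p: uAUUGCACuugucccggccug
miR-182-5p: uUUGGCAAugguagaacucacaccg
miR-19b-3p: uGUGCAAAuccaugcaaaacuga
miR-291a-3p: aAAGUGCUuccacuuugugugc
miR-16-5p: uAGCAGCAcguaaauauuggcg
Summed over the names with the same seed, the families held 26.2% ± 0.58, 8.24% ± 0.22, 6.36% ± 0.97, 6.15% ± 0.18, 5.94% ± 0.81 and 5.49% ± 0.67 of the miRNA counts in this order (SD, n = 2). The differences among the last 4 were smaller than the SD of miR-182-5p, and their order changed between replicates: in replicate 1 the miR-16-5p family held 5.96% and the miR-291a-3p family 5.36%, in replicate 2 5.01% and 6.51%. A sequence was matched for 1679 of the 1978 miRNA names, which held 92.6% of the counts in replicate 1 and 91.9% in replicate 2. The counts of the other names are in no family here, and could add to a family or form others. The genome sequence under the peaks was not analysed here, so no seed match was assigned to any peak of the 7 genes.

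Lifr, the LIF-binding receptor chain, lies on the plus strand of chromosome 15 (7090610 to 7197489), a span of 106880 nt, and all 9 of its peaks lay on that strand. From upstream, they are described as 3 scattered peaks, 4 close ones and a last pair, a division made by eye from their positions. The scattered peaks lay at 7169082 to 7169213, 7173394 to 7173490 and 7177433 to 7177528, with midpoints 28341.5, 24047 and 20008.5 nt before the downstream end. These 3 were of similar width, 132, 97 and 96 nt, and stood 4180 and 3942 nt apart. A gap of 17165 nt without a listed peak followed.

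The next Lifr peaks were close together: 4 lay within 436 nt, between 7194694 and 7195129, and covered 78.9% of that stretch. Their widths were 42, 17, 148 and 137 nt, and the gaps between them 23, 42 and 27 nt. The 17 nt peak was the narrowest of the 7 genes, close to the 15 nt of the narrowest peak in the whole list. After a further 1878 nt came the last pair, of 45 nt (7197008 to 7197052) and 152 nt (7197274 to 7197425), with a gap of 221 nt between them. The outer one ended 64 nt before the annotated end of the gene, and its midpoint lay 139.5 nt before it. In all, 6 of the 9 Lifr peaks lay within 3000 nt of the downstream end.

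RefSeq's promoter table places starts of Lifr at 7129572 and 7140542, both inside the annotated span. The most upstream Lifr peak lay 39575.5 nt after the first of these and 28605.5 nt after the second. Every listed Lifr peak therefore lay downstream of both starts. Which exon or untranslated region holds a peak was not analysed here.

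Il6st, the gp130 chain, lies on the plus strand of chromosome 13 (112464070 to 112506860), and its 9 peaks, again all on the gene strand, formed a single array near the downstream end. From upstream, they were 108 nt wide (112504066 to 112504173), 228 nt (112504296 to 112504523), 63 nt (112504617 to 112504679), 99 nt (112504729 to 112504827) and 163 nt (112504918 to 112505080). Then followed peaks of 96 nt (112505116 to 112505211), 57 nt (112505247 to 112505303), 86 nt (112505361 to 112505446) and 45 nt (112505965 to 112506009). The whole array took 1944 nt of a 42791 nt span, and the peaks covered 945 nt or 48.6% of it.

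Within the Il6st array, the first 8 peaks followed each other at gaps of 122, 93, 49, 90, 35, 35 and 57 nt and covered 65.2% of their 1381 nt. The ninth stood apart from them by 518 nt. Midpoints ran from 2740.5 to 873 nt before the downstream end, with a median of 1861 nt, and so all 9 lay in the last 3000 nt. The upstream edge of the gene was far away: the first peak lay 40049.5 nt after the annotated start.

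**Figure D1:**
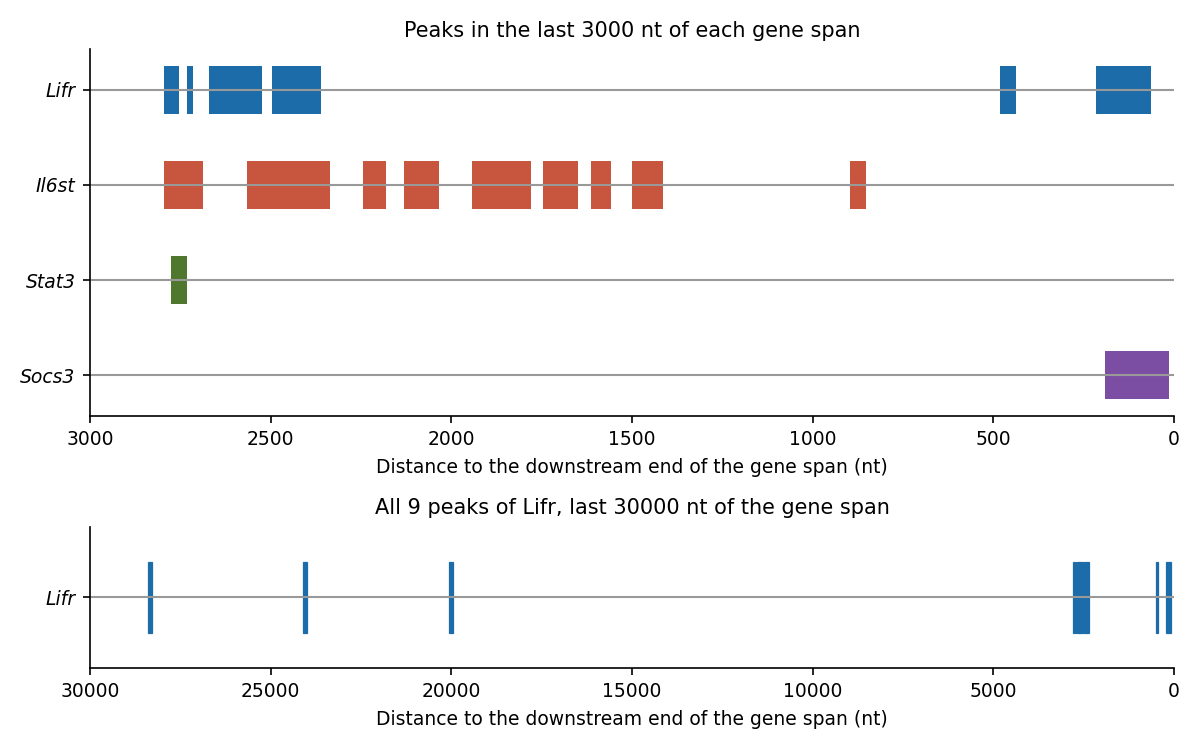
Position of the peaks of Lifr, Il6st, Stat3 and Socs3, drawn to scale as bars against the distance to the downstream end of the gene span in nt (upper panel, last 3000 nt; lower panel, last 30000 nt of Lifr). The 9 Il6st peaks form 1 array, whereas Lifr has 4 close peaks, 2 near the end and 3 at 20008.5 nt or more before it.

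The receptor genes had the same number of peaks but spread them differently. Il6st had no gap over 1000 nt and a median gap of 73.5 nt over 8 gaps, while Lifr had 4 gaps over 1000 nt and a median of 1049.5 nt, with 3 gaps up to 100 nt. Per 100 kb of gene span, Il6st carried 21.0 peaks and Lifr 8.42, while Socs3, a short gene with 1 peak, reached 23.5. These figures depend on the annotated span, which for Lifr begins upstream of both starts in the promoter table. Summed peak width was alike, 945 nt in Il6st and 866 nt in Lifr, the tenth and the fourteenth highest of the 1824 protein-coding genes with a peak, for which the median was 79.5 nt. At least 9 peaks were found in 20 protein-coding genes (0.0913%). Peak counts and summed widths were not scaled by the amount of RNA from each gene, which was not measured in the files used here.

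Il6st reached 9 peaks within 2000 nt, more than any other nuclear gene of the list. The only other protein-coding gene with 9 was the mitochondrial ND5, a subunit of respiratory complex I (0.00913% of protein-coding genes had 9). The next nuclear genes, at 8, were Fgf4, which encodes a growth factor, and Txnip, which encodes a regulator of thioredoxin. That place depended on how peaks were counted, and the Il6st array, 1944 nt long, just fits into 2000 nt. In windows of 1000 nt Il6st held 6 peaks and took rank 4 among nuclear genes, and in windows of 3000 nt it held 9 and took rank 3. With peaks up to 50 nt apart merged it held 6 in 2000 nt and took rank 2. Lifr reached 4 peaks in 2000 nt, a number that 58 protein-coding genes (0.265%) attained or passed. With peaks up to 50 nt apart merged, Lifr held 2 in 2000 nt. It also held 2 with peaks under the lower quartile of width left out.

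**Figure D2:**
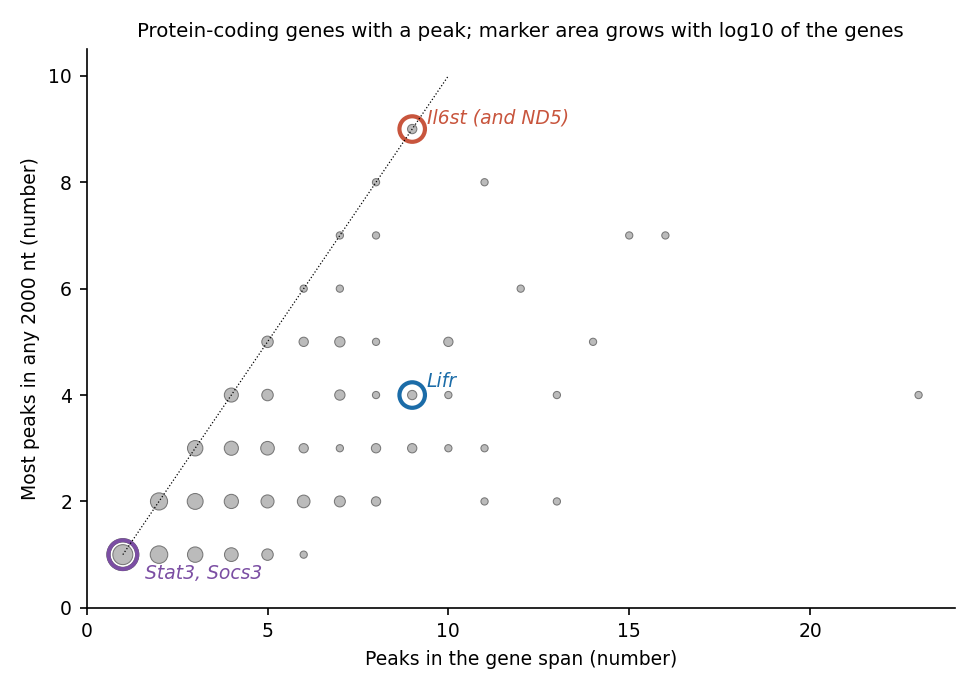
Number of peaks in each protein-coding gene with a peak (x axis) against the most peaks that lay whole within any 2000 nt (y axis); grey markers stand for all genes at that pair of values, rings for the 4 member genes, and the dotted line for equal values. Il6st lies on the line at 9 and 9, Lifr at 9 and 4, and Stat3 and Socs3 at 1 and 1.

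By the rule for similar genes, the same number of peaks and a gene span within 1.5-fold, Lifr had Lmtk2, a kinase gene, and Il6st had Tnks2, which encodes a tankyrase. The median distance of the peaks to the downstream end was 4873 nt in Lmtk2 against 2722 nt in Lifr, and 4687.5 nt in Tnks2 against 1861 nt in Il6st. Tnks2 held 4 peaks in its densest 2000 nt, as did Lifr, and Lmtk2 held 3. The only other nuclear gene with 9 peaks, Tns3, spans 233107 nt and so fell outside the rule. Its median distance was 2932 nt, close to that of Lifr, and it held 3 peaks in its densest 2000 nt. Il6st, at the same count of peaks, held all 9 in that length. These likenesses rest on 1 peak list and 9 peaks per gene, counted without merging close peaks.

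Stat3, the transcription factor, had a single peak on its own minus strand of chromosome 11, at 100889539 to 100889582 within a gene span of 100886806 to 100939594. It was 44 nt wide, and its midpoint lay 2754.5 nt before the downstream end and 49979.5 nt after the start. The width falls below 45 nt, the lower quartile of all peaks, so that a filter at that quartile left Stat3 without a peak. The position is close to that of the first Il6st peak, 2740.5 nt before its end, and of the first of the 4 close Lifr peaks, 2774.5 nt before its end; the distances are from different genes and were not tested for likeness. The plus-strand gene Stat5a ends just beyond Stat3, on the other side of its downstream end, and had no peak of its own.

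Socs3, the feedback inhibitor, is a short gene on the minus strand of chromosome 11 (117966079 to 117970336, 4258 nt) and had 1 peak at 117966092 to 117966267. At 176 nt it was the second widest of the 20. Its midpoint lay 100.5 nt before the downstream end and its edge 13 nt before it, the nearest of all 20 peaks. Stat3 and Socs3 thus each had 1 peak, but one was narrow and well before the end, and the other was wide and at it. A single peak was the usual number, found in 1189 of the 1824 genes with a peak.

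The kinase genes Jak1 on chromosome 4 (101151974 to 101265282) and Jak2 on chromosome 19 (29251803 to 29313095), and the phosphatase gene Ptpn11 on chromosome 5 (121130533 to 121191397), had no listed peak on either strand. Counting any overlap of 1 nt, or adding 5000 nt at the downstream end, gave none either. Their spans, 113309, 61293 and 60865 nt, were longer than the 42791 nt of Il6st. The nearest listed peak outside the span lay 2413798 nt from Jak1, 239766 nt from Jak2 and 14238 nt from Ptpn11, on either strand. Most protein-coding genes had no listed peak, and a gene without one is not shown to be free of AGO2. For the genes with peaks, the nearest listed peak outside lay 157703 nt from Stat3, 243217 nt from Socs3, 292246 nt from Lifr and 748470 nt from Il6st, so none lay just beyond the boundary that the rule drew.

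Peaks of these genes were mostly wider than the rest of the list. Their median width was 96.5 nt, with a range of 17 to 228 nt, beside a median of 58 nt and quartiles of 45 and 84 nt for all 3292 peaks. Of the 20, 13 were wider than the upper quartile of all peaks, and 8 (40%) were at least 100 nt wide, beside 554 (16.8%) in the whole list. Lifr had 4 of these wide peaks, Il6st 3 and Socs3 1. Median widths within Lifr and Il6st were 97 and 96 nt. Neighbouring peaks of 1 gene are not independent, and the sources used here do not give how reads were joined into a peak.

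**Figure D3:**
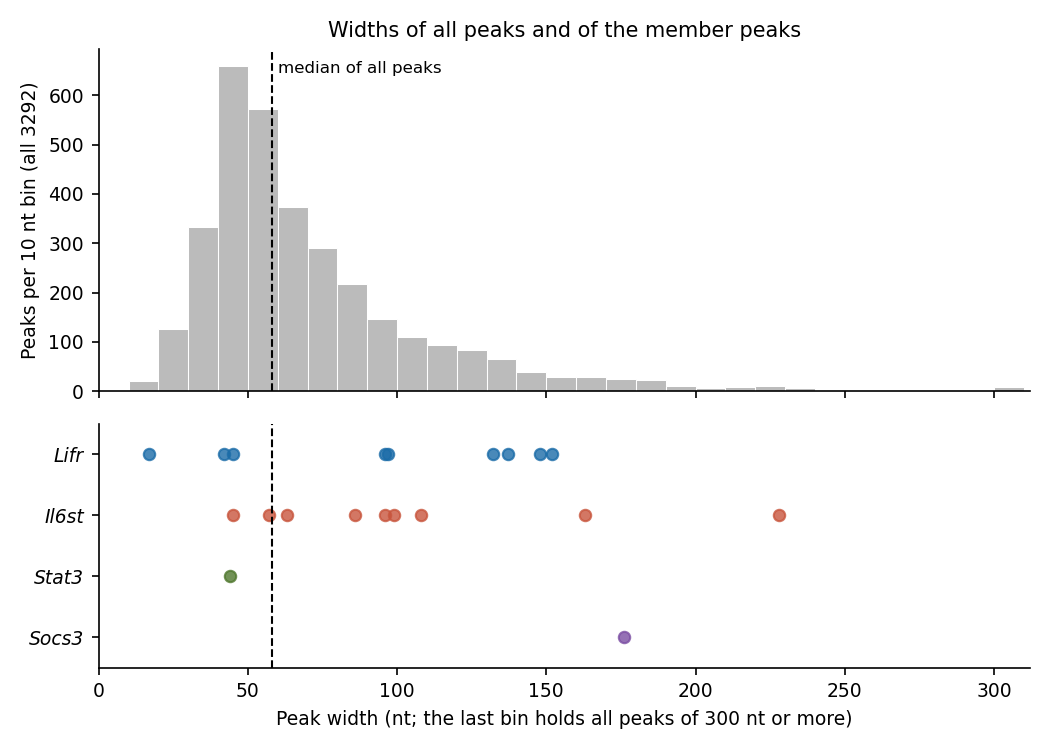
Widths of all 3292 peaks as counts per 10 nt bin (upper panel) and of each peak of Lifr, Il6st, Stat3 and Socs3 as a point (lower panel), in nt; the dashed line is the median of all peaks, 58 nt. Of the 9 peaks of each receptor gene, 7 in Il6st and 6 in Lifr lie to its right, whereas the Stat3 peak lies to its left.

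Spacing was short in Il6st and mixed in Lifr. Median gaps were 73.5 nt in Il6st and 1049.5 nt in Lifr, beside 1473 nt over 1353 gaps in 603 nuclear protein-coding genes, and 91.5 nt over the 16 gaps of both genes. Gaps of at most 100 nt made up 9 of the 16 and 269 of the 1353 (19.9%), and 6 of these 9 were in Il6st. The shortest gap in Lifr was 23 nt and in Il6st 35 nt, near the shortest in the nuclear genes, 21 nt. The distance at which the authors joined neighbouring intervals is not stated in the sources used here. With peaks up to 50 nt apart merged, Lifr and Il6st had 6 peaks each.

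**Figure D4:**
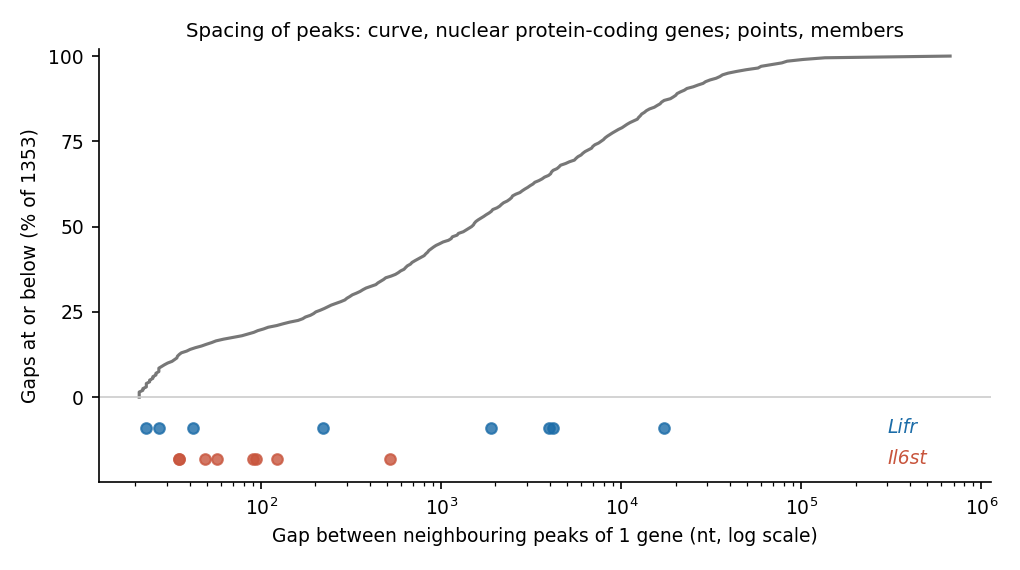
Cumulative share of the 1353 gaps between neighbouring peaks in nuclear protein-coding genes (curve, % on the y axis) against the gap in nt on a log scale, with the 8 gaps of Lifr and the 8 of Il6st as points below the curve. The Il6st gaps lie between 35 and 518 nt and the Lifr gaps between 23 and 17165 nt.

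In position, 17 of the 20 peaks (85%) lay within 3000 nt of the downstream end and the same 17 in the last 10% of the gene span; the other 3 were the upstream peaks of Lifr. Among 3070 peaks in exactly 1 nuclear protein-coding gene, 1382 (45.0%) lay within 3000 nt and 1277 (41.6%) in the last 10%. The median distance was 2320 nt for the 20 peaks and 3899.75 nt for the 3070, whose quartiles were 1111.38 and 17411.1 nt. Within 2000 nt of the end the shares were closer, 8 of 20 (40%) beside 36.0%. Between 2000 and 3000 nt lay 4 of the 9 Il6st peaks, 4 of the Lifr peaks and the Stat3 peak. All 4 genes with a peak had one within 3000 nt of the end, as did 998 (54.7%) of the 1824 protein-coding genes with a peak, or 4.56% of all protein-coding genes. All 20 peaks were on the strand of their gene, which also held for 2440 of 2464 nuclear peaks (99.0%) whose gene had a strand in the promoter table.

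The wider pathway was read from a list of 50 further genes, of which 12 (24%) had a peak, 24 peaks in all, beside 8.33% of all protein-coding genes. This share was uneven: 8 of the 12 were among the 11 response genes described below, 2 among 14 inhibitor genes and 2 among 6 adaptor genes. Peaks were listed for 0 of 7 ligand genes of the interleukin-6 family, Lif among them, 0 of 4 other receptor genes, 0 of the kinase genes Jak3 and Tyk2 and 0 of 6 other STAT genes; at a share of 8.33%, counts of 0 in groups this small are near the background. Of 14 further inhibitor genes, 2 had a peak, both for SUMO ligases that restrain STAT proteins: Pias1, 20571 nt before its end, and Pias2, 1947 nt before it. The other SOCS genes, Socs1, Socs2, Socs4, Socs5, Socs6, Socs7 and Cish, had none. Of 6 adaptor genes, Gab1, which binds SHP2, had peaks 24183.5 and 1627.5 nt before its end, and Sos1, which activates RAS, had a pair 4570 and 4056 nt before its end.

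The response genes, which LIF or STAT3 is known to induce in mouse embryonic stem cells, had peaks in 8 of 11 cases, with 18 peaks, beside the 8.33% of all protein-coding genes. The list was drawn up with earlier results of these data known and was not tested. Tfcp2l1, a transcription factor gene of self-renewal, had 3, of which a pair lay 2746 and 2673.5 nt and the third 70 nt before the end. Pim3, a kinase gene, had 4 at 2236, 713, 624 and 64.5 nt, and its relative Pim1 had 2 narrow ones of 28 and 27 nt at 724.5 and 671 nt. Mcl1, which protects from apoptosis, had 4 at 3285.5, 1281.5, 571 and 91 nt. Klf4, a pluripotency factor gene, had 2 at 978.5 and 248.5 nt, and Klf5, of the same family, had 1 at 9963.5 nt. Bcl3, a nuclear regulator of NF-kB, had 1 at 134.5 nt, and Junb, of the AP-1 family, 1 at 147.5 nt. Myc, Gbx2 and Pramel7 had none.

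None of the 50 genes had more than 4 peaks, below the 9 of Lifr and of Il6st. Of the 24 peaks, 18 lay within 3000 nt of the downstream end, beside 45.0% of the 3070 peaks in exactly 1 nuclear protein-coding gene. The median distance was 1130 nt beside 3899.75 nt, and the median width 73.5 nt beside 58 nt for all peaks. Gene length limits this distance: Junb spans 1840 nt, Pim3 3533, Pim1 5327, Klf4 5339 and Mcl1 6236. The other listed genes with a peak span 14363 to 116089 nt, and the median over all genes with a peak was 35164 nt. Distances were not scaled by gene length. RNA levels of these genes were not measured in the files used here.

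**Figure D5:**
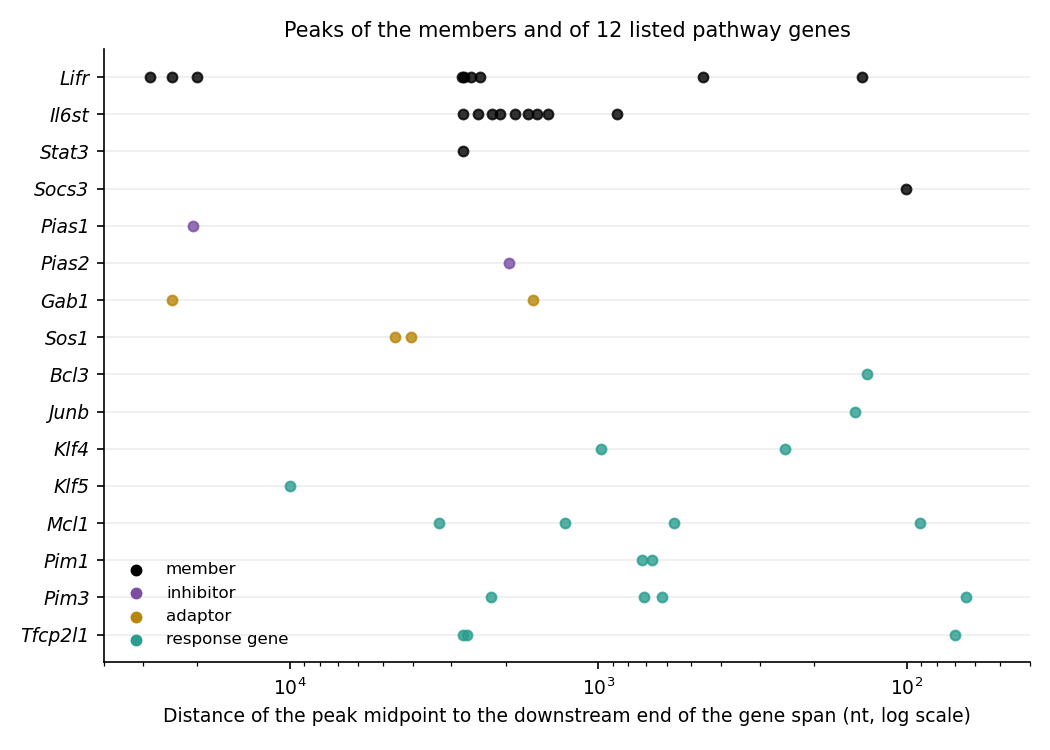
Distance of each peak midpoint to the downstream end of its gene span, in nt on a log scale that falls from left to right, for the 4 member genes with peaks (black) and the 12 listed pathway genes with peaks (coloured by role). Lifr, Gab1 and Pias1 are the genes with a peak 20008.5 nt or more before the end, and Tfcp2l1, Pim3 and Mcl1 are those with one within 100 nt.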

How the data were processed

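The authors deposited 1 peak list on mm10, with strand and with a score of 0 for every peak, and per miRNA library a table of raw, unnormalized counts. Tools named without a role in the submitters' processing notes are deepTools 3.1.3, DESeq2 1.36.0, Bowtie2 2.4.2, STAR 2.5.2a, cutadapt 2.10 and UMI-tools. The sources used here do not give the peak caller, its threshold, the use of the input or whether replicates were pooled.

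Peaks were assigned by midpoint to RefSeq spans of GRCm38.p6 (49997 genes), with gene strand and starts from RefSeq's promoter table, which covered 17492 of 21900 protein-coding genes. Distance ran from the midpoint to the span end in the direction of the gene strand, or of the peak strand where the gene's was lacking. Coordinates count from 1. A window count took peaks that lay whole within 2000 nt. miRNA shares are percentages of each library's total, and a row that names no miRNA held 0 counts. Assignment by midpoint and the distance from the peak edge to the gene end were tested on simulated peaks. The gap, window and merging steps were not. Python 3.11.15, numpy 2.4.6, pandas 2.3.3 and matplotlib 3.10.9 were used.

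The members and lists were chosen with earlier results of these data known. Genes were named by rule: the 7 members, listed genes with a peak, and up to 3 similar genes per member with the most peaks. ND5, Fgf4, Txnip, Tns3, Lif, Jak3, Tyk2, Stat5a, the other SOCS genes, Myc, Gbx2 and Pramel7 were picked once values were known. The planned count of seed matches under the peaks was not run, because no genome sequence was used here. Labels do not say whether replicates were separate cultures.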

Additional observations from a re-analysis of the deposited data

How the results depend on the processing

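The 20 peaks of the 7 genes stayed 20 with any overlap of 1 nt or a span longer by 5000 nt, and became 17 with peaks under the lower quartile of width left out, which removed the Stat3 peak (0 left), and 14 with peaks up to 50 nt apart merged. With that merging the median width was 120 nt instead of 96.5. The median spacing of 91.5 nt was 229.75 nt between midpoints, which by construction adds peak widths. The median distance to the downstream end, 2320 nt, was 2259 nt from the downstream edge of the peak, 2291.5 nt with 1 value per gene and 2082 nt over the wider peaks. The 12 pathway genes with a peak stayed 12 with any overlap and became 13 with the longer span, where Stat5a took the Stat3 peak from the opposite strand. The densest 2000 nt of Il6st, with alternatives chosen after seeing the data, kept 9 peaks without narrow ones. The leading shares of miRNA counts stayed within 1 SD when either replicate was left out, which holds by construction with 2 libraries; that of the miR-290a-5p family was 25.8% to 26.6%.

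No paired analysis was possible because the peak list has no value per replicate and the miRNA tables belong to 1 group. Leaving out 1 target library was not run, since the peak list does not split by library. The list gives no count per peak, and so no depth.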

Other observations

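The names of the peaks are running numbers that reach 30438, of which the 3292 listed ones are 10.8%, and within each chromosome and strand they follow position. The sources used here do not say what the unlisted numbers stand for. The Il6st array ran over 15 numbers, 9 listed and 6 not, and 5 of its 8 neighbouring pairs had consecutive numbers. Lifr ran over 36 numbers with 27 unlisted, 25 of which fell in its 17165 nt gap. Over both genes, 11 of 16 neighbouring pairs were consecutive, beside 484 of 1353 pairs (35.8%) in nuclear protein-coding genes.

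For the members without a listed peak, the flanking peaks bound from above how many unlisted numbers can fall inside the gene, whatever these stand for. The stretches are far longer than the genes, so the bound is loose. Between the listed peaks that flank the gene on its own strand, 19 unlisted numbers lay around Jak1, in a stretch of 21363781 nt, 14 around Jak2 in 1045456 nt, and 31 around Ptpn11 in 6222077 nt. How many of them fell inside the gene is not known. Around Stat3 9 unlisted numbers lay in 381241 nt, and around Socs3 60 in 3730010 nt.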
